A study of Mus musculus with 6 samples.

Results

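The cytosolic ribosome of mouse neurons was examined through the messenger RNAs of its protein subunits. Genes were taken by their symbols, as those named *Rpl*, *Rps* or *Rplp* with a number, or *Rpsa*, and with only the suffixes of subunits and their paralogues, so that processed pseudogenes named -ps stayed out. Of the 50508 symbols in the deposited files, 86 matched, and 81 of them were above 0 in at least 1 library. They comprised 32 genes of the small subunit, 46 of the large subunit and 3 of the stalk, *Rplp0*, *Rplp1* and *Rplp2*. The other 5 genes, *Rpl10l*, *Rpl24*, *Rpl29*, *Rpl39l* and *Rps12l1*, were listed at 0 in every library.

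Primary neurons received a lentivirus in which the *Ef1alpha* promoter drives a nuclease-dead Cas9 fused to the activator VP160, a protein that raises transcription where a guide RNA directs it. Both groups carried this activator and differed in the guide: sgLacZ, a control guide against the bacterial gene LacZ (Ctrl-dCas9A in the paper), or sgKcna1, a guide against the promoter of the potassium channel gene *Kcna1* (Kcna1-dCas9A in the paper), with 3 libraries each. The labels give hippocampus as the tissue, while the paper's methods describe cortical neurons of newborn C57Bl/6J pups transduced after 1 day in vitro, with RNA taken at 10 days in vitro in one passage and a later age in another. The promoter is not specific to neurons, and every cell type of the culture could carry the construct. In these bulk samples, fewer cells of a type and less RNA per cell cannot be told apart.

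*Kcna1*, the targeted gene, had values of 16, 16 and 16 in sgLacZ and of 68, 47 and 65 in sgKcna1, a log2 fold change of 1.83 (adjusted p = 0.0345, limma), so that the guide labels and the target gene pointed the same way. Values summed to between 999047 and 999717 per library and were treated as scaled to a common total and then rounded, so the number of reads is unknown. A value below is this deposited score, read from the 3′ end of transcripts. It was treated as not divided by gene length, although the scaling is not given. Fold changes are differences of log2(value + 1), sgKcna1 minus sgLacZ, with p-values from limma, adjusted over all 19504 genes above 0. Gm42418, a gene that overlaps ribosomal RNA, held 15.3% to 20.2% of a library, and transcripts of the mitochondrial genome held 2.15% ± 0.245 in sgKcna1 against 2.77% ± 0.0756 in sgLacZ (SD, n = 3), without overlap. What part either has in the values of the ribosomal protein genes was not tested. Nothing in the labels names separate cultures, so p-values measure the spread between these libraries, which may be technical.

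Each ribosome holds a single copy of nearly all of its proteins, joined to ribosomal RNA. The small subunit decodes the messenger RNA, the large subunit forms peptide bonds, and the stalk, where the acidic proteins *Rplp1* and *Rplp2* sit in several copies on *Rplp0*, recruits the translation factors. Most of these messenger RNAs are known to begin with a C followed by a run of pyrimidines, the 5′ terminal oligopyrimidine or TOP motif, through which the mTOR pathway adjusts their translation as a group. In neurons they are among the most abundant messages, and some are found in axons and dendrites as well as in the cell body.

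Start sites were read from RefSeq for GRCm38.p6, which held promoters of 60 of the 81 genes. A tract was counted where a C within 3 bases of an annotated start began at least 5 pyrimidines in a row on the transcribed strand. The count ran from that C, whatever base stood before it. Such a tract was present in 25 of the 60 genes (41.7%), compared with 13.5% of 27025 genes with a promoter and 15.5% of genes whose mean was at least 10. The start used in these neurons may differ from the annotated one, and runs that begin farther from it were not counted. *Rps26* and *Rps12*, for example, were counted as without a tract but have pyrimidine runs farther downstream. The windows below run from 8 bases before to 16 from the start, 5′ to 3′ on the transcribed strand, with the run as counted in capitals. They show 3 genes that fell in sgKcna1, 1 gene with a large difference that missed the threshold, and 2 genes on the other side of 0, of which *Rpl26* has no tract by this rule.

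*Rpl35a*: ttgccttCCTCTTTCCgccatctt

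*Rps23*: gctgggcggggCTTCCCgcaatgc

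*Rps18*: cttccgCTCTCTCTTCCacaggag

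*Rpl7a*: cttctttCTTTCTCCagcagccga

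*Rpl27a*: tgagctCCTCCCTTTTCCCTTTCT

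*Rpl26*: caacttaCagaaccggaagtcgcg

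The windows are chr16:33056474-33056497 (plus strand) for *Rpl35a*, chr13:90923114-90923137 (plus) for *Rps23*, chr17:33955650-33955673 (minus) for *Rps18*, chr2:26910799-26910822 (plus) for *Rpl7a*, chr7:109519187-109519210 (plus) for *Rpl27a* and chr11:68901558-68901581 (plus) for *Rpl26*. *Rpl35a* has 3 annotated starts, and the one with the longest run is shown. *Rpl27a* held the longest run counted in this way, 18 pyrimidines, and *Rpl26* had only its first C. In *Rpl27a*, *Rpl7a* and *Rpl35a*, pyrimidines also stood directly before the capitals. The 25 genes with a tract had a median log2 fold change of −0.41 (range −1.47 to 0.45) and the 35 without one a median of −0.15 (range −1.14 to 0.79). Both ranges span genes that were lower and genes that were higher, and the difference of the medians was not tested. The letters CCGGAAG, the core of sites bound by ETS factors, stood on either strand in 40% of the 300-base promoters of ribosomal protein genes and in 22.1% of those of genes with a mean of at least 10. AAGATGGC, the core of the YY1 motif, stood in 10% and 6.16%. Matches of letters are no evidence that a factor binds there.

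The summed level of the ribosomal protein genes was nearly the same in both groups. The 81 genes together had values of 23790, 24084 and 25466 in sgLacZ and of 23725, 25296 and 24778 in sgKcna1. The groups overlapped, with means of 24450 ± 895 and 24600 ± 801 (SD, n = 3) and a ratio of 1.006. These sums were 2.37% to 2.55% of a library. Leaving Gm42418 out of the totals gave 2.99% ± 0.052 in sgLacZ and 2.98% ± 0.173 in sgKcna1. The single genes under this sum differed from it in both directions.

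Large-subunit genes without the stalk summed to 10008, 9879 and 10218 in sgLacZ and to 9423, 10055 and 9434 in sgKcna1, and small-subunit genes to 11925, 12205 and 13305 and to 12601, 13282 and 13605. Each pair of sums overlapped. The ratio of small to large was 1.19, 1.24 and 1.3 in sgLacZ and 1.34, 1.32 and 1.44 in sgKcna1, without overlap, although an exact permutation test of 3 libraries against 3 cannot give a p below 0.1. The ratio was also taken without *Rps14* and *Rps20*, a choice made after their high values in sgKcna1 were seen. It was 1.02 ± 0.0131 and 1.06 ± 0.034 without *Rps14* (no overlap), 1.16 ± 0.0477 and 1.22 ± 0.0451 without *Rps20* (overlap), and 0.936 ± 0.00886 and 0.917 ± 0.0137 without both (overlap; sgLacZ, then sgKcna1, SD, n = 3).

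**Figure D1:**
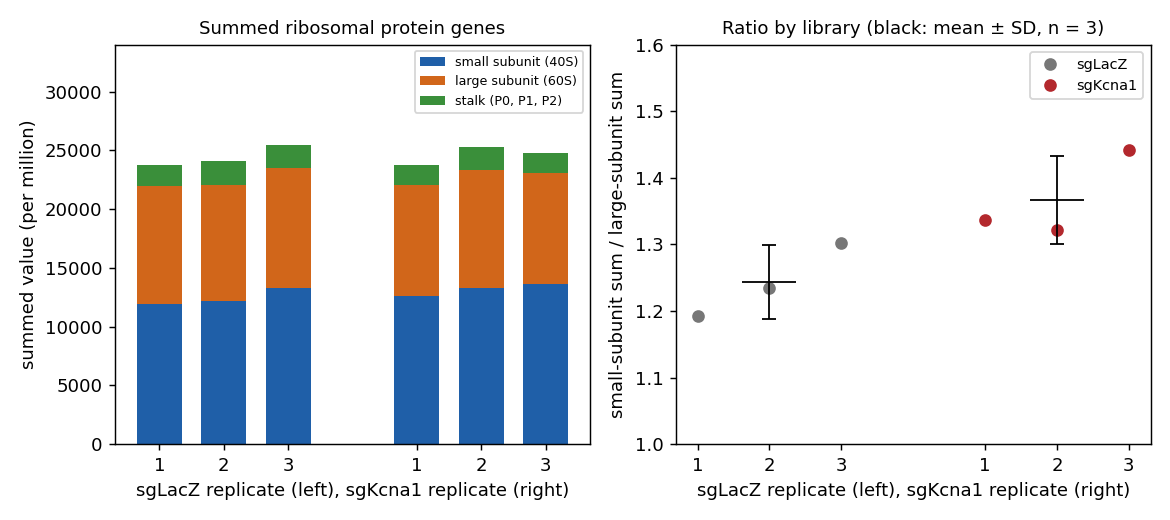
Left, stacked values of the small-subunit, large-subunit and stalk genes in each of the 6 libraries (bars from 0). Right, ratio of the small-subunit to the large-subunit sum per library (points) with mean ± SD (n = 3) in black, between 1.19 and 1.3 in sgLacZ and between 1.32 and 1.44 in sgKcna1.

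Most single genes lay lower in sgKcna1. The log2 fold change was under 0 in 58 of the 81 genes (71.6%), compared with 55.8% of all genes tested. Its median was −0.25 (quartiles −0.59 and 0.04, range −1.47 to 0.79), compared with −0.02 for all genes. With median-of-ratios and upper-quartile scaling, 51 and 48 of the 81 genes were under 0. The medians with these scalings were −0.17 and −0.14, compared with 0.02 and 0.03 for all genes. At an adjusted p under 0.05, 4 genes fell and 0 rose: *Rpl17*, *Rpl35a*, *Rps18* and *Rps23*, which is 4.94% of the 81 against 1.16% of all genes in either direction (0.81% lower, 0.349% higher). At an unadjusted p under 0.05 in the same limma fit, 34 genes (42%) were lower and 11 (13.6%) higher, against 13.6% and 9.59% of all genes. Among genes with a mean of at least 10, which holds 79 of the 81, the shares were 43% and 13.9% against 23.6% and 16.1%. With a mean of at least 100 (52 genes) they were 34.6% and 21.2% against 21.8% and 27.6%.

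The adjusted p-values crowd just above the threshold. At 0.06, a value chosen after the p-values were seen, 17 genes were lower and 3 higher, against 3.68% and 2.34% of all genes. Without sgLacZ replicate 3, 22 genes were called lower, the 4 genes among them, and 11 higher, while 14.2% of all genes were called. Without any 1 of the other 5 libraries no gene of the whole table was called in the same test, with 25 to 35 ribosomal protein genes lower and 3 to 7 higher at an unadjusted p under 0.05, where 10.5% to 12.1% of all genes were lower and 6.67% to 9.11% higher. In 51 of the 81 genes, sgLacZ replicate 3 was the control library closest to the sgKcna1 mean, compared with 9 for replicate 1 and 17 for replicate 2. Robust variance estimates gave 30 genes lower and 9 higher (14.8% of all genes called), and a fit without the intensity trend gave 1 lower and 0 higher, 1.23% of the 81 against 1.03% of all genes (0.431% lower, 0.6% higher).

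Values of the 2 groups did not overlap in 41 of the 81 genes. All 3 sgKcna1 libraries lay below all sgLacZ libraries in 33 genes (40.7%) and above them in 8 (9.88%), compared with 13.3% and 8.98% of all genes tested. These shares of all genes are not matched for level. Of the 33 genes, 13 belong to the small subunit, 19 to the large subunit and 1 is the stalk gene *Rplp2*. The 8 were divided equally between small and large subunit. The median over the 81 genes of the log2 value was 7.71, 7.62 and 7.58 in sgLacZ and 7.32, 7.41 and 7.37 in sgKcna1, again without overlap.

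**Figure D2:**
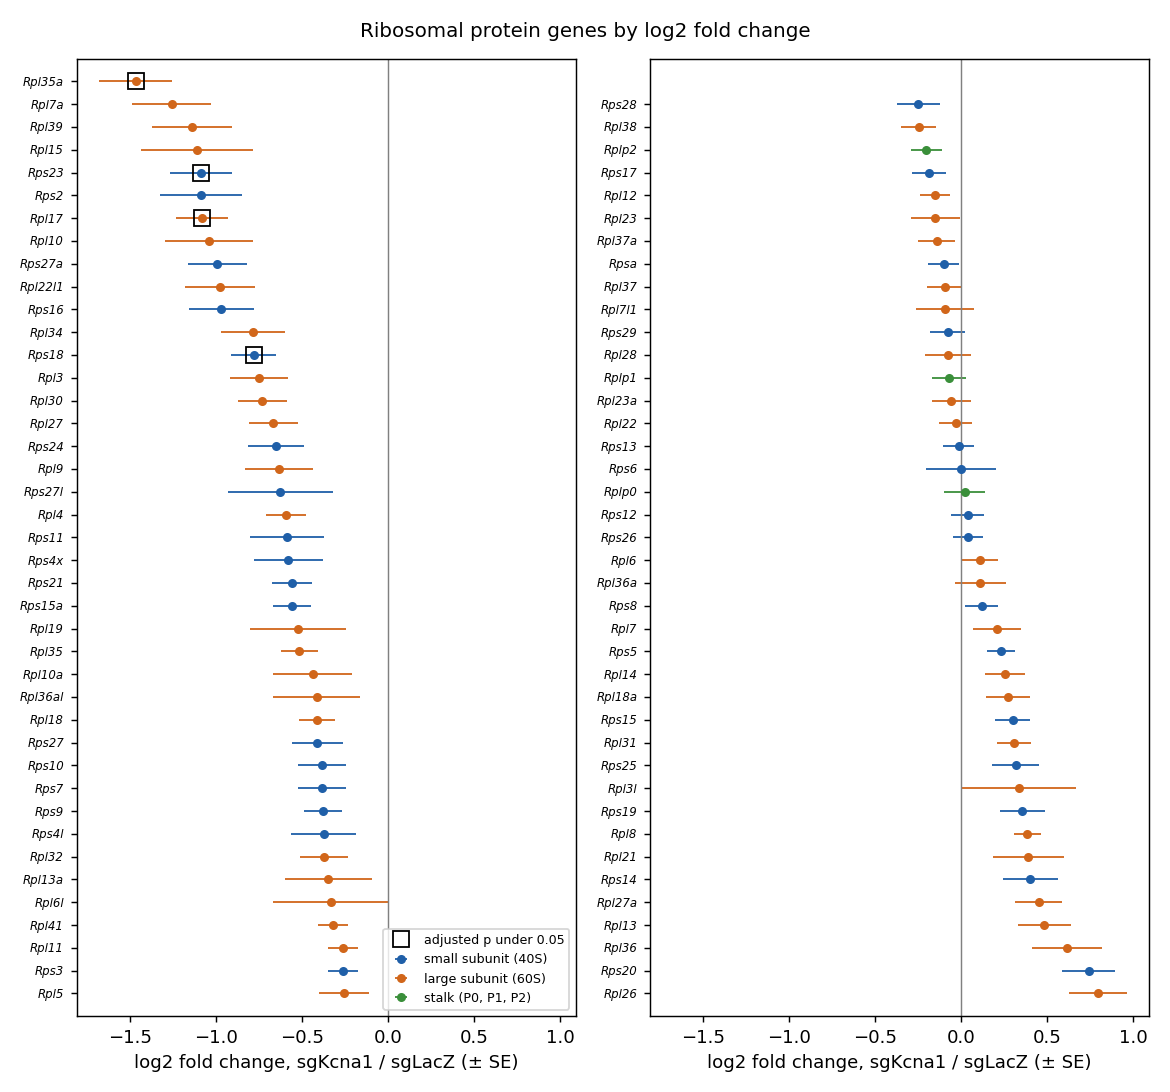
Log2 fold change (sgKcna1 minus sgLacZ, x axis) of each of the 81 genes with its standard error from limma, ordered by fold change over both panels and coloured by small subunit, large subunit or stalk. Squares mark the 4 genes past an adjusted p of 0.05, all below 0, a side that holds 58 of the 81 genes.

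In the large subunit, *Rpl35a* had the lowest fold change. Its protein is needed for maturation of large-subunit RNA, and its loss causes Diamond-Blackfan anaemia. Its values were 22, 17 and 14 in sgLacZ and 6, 6 and 5 in sgKcna1, a log2 fold change of −1.47 ± 0.211 (SE, adjusted p = 0.0486, limma). *Rpl17*, which lines the exit of the peptide tunnel, had values of 208, 196 and 176 in sgLacZ and of 108, 93 and 74 in sgKcna1 (−1.08 ± 0.151, adjusted p = 0.0486, limma). With the values of same-named pseudogenes added, *Rpl35a* no longer passed (−1.08, adjusted p = 0.0549, limma). Without the intensity trend *Rpl17* did not pass (adjusted p = 0.0625, limma). Both genes separate the groups without overlap, and *Rpl17* does so at a level above 70 in every library.

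The next lowest genes of the large subunit did not pass the threshold, although their groups did not overlap. *Rpl7a* had values of 141, 119 and 91 in sgLacZ and of 56, 55 and 35 in sgKcna1 (−1.26 ± 0.23, adjusted p = 0.0527, limma). *Rpl39*, a small protein of the exit tunnel, had values of 94, 80 and 50 against 29, 34 and 34 (−1.14 ± 0.23, adjusted p = 0.0556, limma). *Rpl15*, a core structural protein, had values of 35, 34 and 22 against 15, 8 and 19 (−1.11 ± 0.326, adjusted p = 0.099, limma). In all 3 genes the lowest control value was that of sgLacZ replicate 3.

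The 5 highest fold changes among genes with a mean of at least 10 included 4 of the large subunit, and none passed the threshold. *Rpl26*, which lies near the tunnel exit and is also known to bind p53 messenger RNA, had values of 142, 153 and 217 in sgLacZ and of 266, 302 and 308 in sgKcna1 (0.79 ± 0.167, adjusted p = 0.0556, limma). *Rpl36* had values of 117, 130 and 191 against 213, 259 and 190 (0.61 ± 0.203, adjusted p = 0.128). *Rpl13* had values of 308, 334 and 445 against 445, 530 and 531 (0.48 ± 0.154, adjusted p = 0.119). In *Rpl36* the groups overlapped by 1 unit and in *Rpl13* they met at 445, in each case through sgLacZ replicate 3. *Rpl27a* had values of 222, 212 and 282 against 300, 310 and 364 (0.45 ± 0.137, adjusted p = 0.107), and its groups did not overlap.

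In the small subunit, *Rps23* and *Rps18* fell. *Rps23*, a protein of the decoding centre, had values of 79, 61 and 66 in sgLacZ and of 38, 33 and 25 in sgKcna1 (−1.09 ± 0.18, adjusted p = 0.0496, limma). *Rps18*, in the head of the subunit next to the large one, had values of 74, 82 and 62 against 44, 42 and 39 (−0.78 ± 0.132, adjusted p = 0.0497, limma). With same-named pseudogenes added, *Rps18* no longer passed (−0.65, adjusted p = 0.0526, limma), nor did it with quantile normalization (adjusted p = 0.0545). Without the intensity trend neither gene passed (adjusted p = 0.0776 for *Rps23* and 0.0926 for *Rps18*, limma). Both sets of sgKcna1 values lie wholly below the sgLacZ values, and both adjusted p-values lie within 0.001 of the threshold.

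*Rps20*, a protein of the head of the small subunit, lay on the other side, with values of 821, 696 and 993 in sgLacZ and of 1359, 1226 and 1587 in sgKcna1 (0.74 ± 0.156, adjusted p = 0.0556, limma). *Rps14*, a protein of the subunit's platform whose loss of 1 copy is tied to the anaemia of the 5q- syndrome, had the highest mean level of all ribosomal protein genes, 2592. Its values of 1826, 2175 and 2742 in sgLacZ and of 2708, 2878 and 3224 in sgKcna1 overlapped (0.40 ± 0.16, adjusted p = 0.187), and its share of the summed values was 9.16% ± 1.55 against 11.9% ± 0.932 (SD, n = 3). With quantile normalization the fold change of *Rps14* was 0.09 (adjusted p = 0.67, limma). *Rps12* had a mean of 1090 ± 112 in sgLacZ and 1114 ± 33 in sgKcna1, *Rpl23a* 902 ± 78 and 868 ± 99.5, and *Rps25* 742 ± 99 and 923 ± 122 (SD, n = 3). These 3 complete the 5 highest levels, and their groups overlapped.

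In the stalk, 0 genes passed the threshold or an unadjusted p of 0.05. *Rplp0*, the scaffold of the stalk, had values of 333, 431 and 424 in sgLacZ and of 379, 419 and 400 in sgKcna1 (0.02 ± 0.12, adjusted p = 0.947). *Rplp1* had values of 746, 763 and 713 against 636, 788 and 698 (−0.07 ± 0.101, adjusted p = 0.646). *Rplp2* had values of 778, 806 and 806 against 686, 752 and 641 (−0.20 ± 0.0885, adjusted p = 0.221), the only stalk gene without overlap.

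Other genes whose adjusted p lay between 0.05 and 0.06 spanned a wide range of levels, and those given here were chosen after their values were seen. *Rps27a*, which encodes a small-subunit protein fused to ubiquitin, had a mean of 121 ± 16.8 in sgLacZ and 60.7 ± 11 in sgKcna1 (SD, n = 3), a log2 fold change of −0.99. *Rps2*, at the entrance of the messenger RNA channel, had 26.7 ± 8.62 and 11.7 ± 1.16 (−1.08), and *Rps21* 699 ± 81.7 and 474 ± 42.5 (−0.56). *Rpl4*, whose long loop lines the exit tunnel, had 398 ± 22.1 and 265 ± 36 (−0.59), and *Rpl27* 541 ± 95.8 and 337 ± 14.1 (−0.67). *Rpl8*, a protein near the peptidyl transferase centre, lay the other way, at 667 ± 29.9 and 870 ± 30 (0.38). The groups did not overlap in any of these 6 genes. *Rps6*, the phosphorylated target of S6 kinase, had a mean of 25.3 ± 7.09 and 24.7 ± 1.16, and its groups overlapped.

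**Figure D3:**
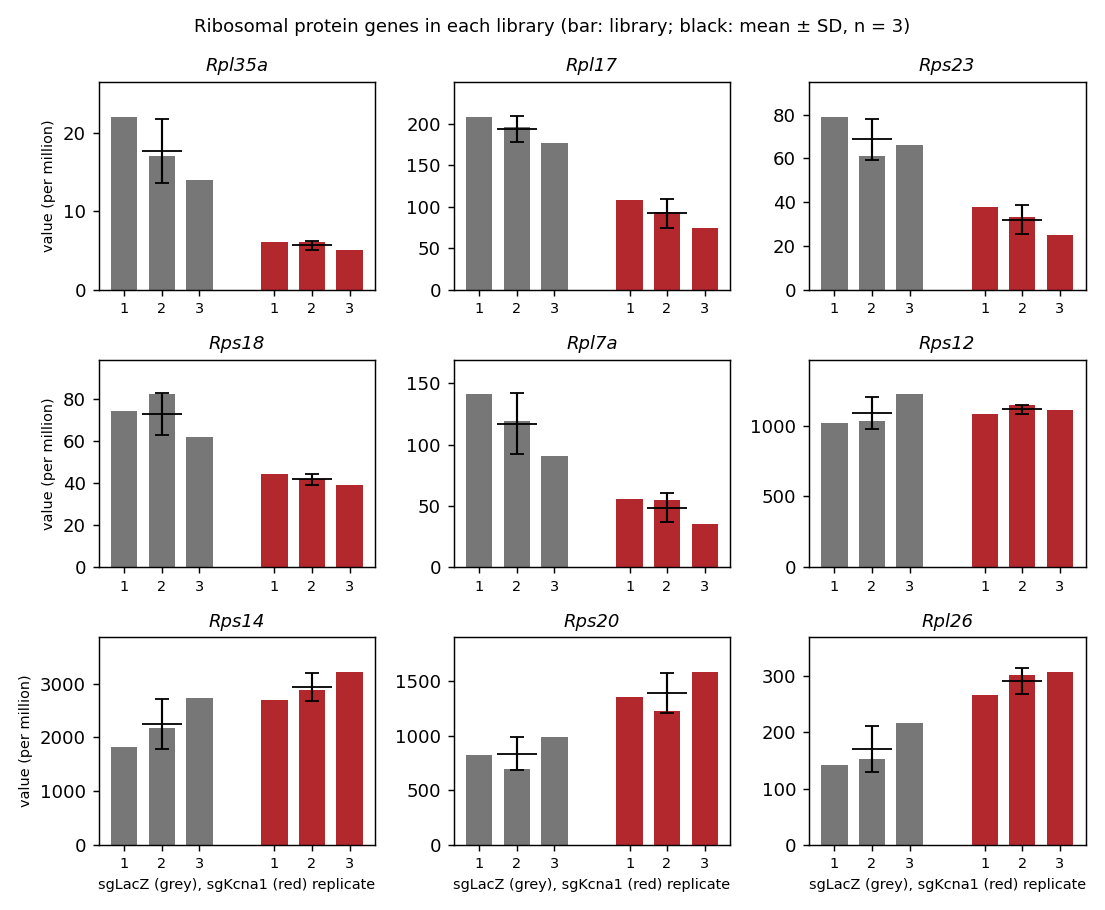
Values in each of the 6 libraries (bars from 0, grey for sgLacZ and red for sgKcna1, with mean ± SD in black) for the 4 genes past the threshold and for *Rpl7a*, *Rps12*, *Rps14*, *Rps20* and *Rpl26*. In *Rpl17* all sgKcna1 bars lie at or below 108 and all sgLacZ bars at or above 176, whereas the *Rps12* bars of both groups lie between 1020 and 1220.

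*Rpl22*, which binds RNA in the large subunit, had values of 430, 411 and 418 in sgLacZ and of 371, 408 and 455 in sgKcna1 (−0.03 ± 0.0972, adjusted p = 0.846), while its paralogue *Rpl22l1* had values of 51, 47 and 36 against 25, 25 and 17 (−0.97 ± 0.203, adjusted p = 0.0556, limma). The groups of *Rpl22l1* did not overlap and those of *Rpl22* did. A test of the difference between paralogues was not made.

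*Rpl3*, a core protein of the peptidyl transferase centre, had values of 161, 127 and 146 in sgLacZ and of 93, 99 and 67 in sgKcna1 (−0.75 ± 0.17, adjusted p = 0.0556, limma), and its striated-muscle paralogue *Rpl3l* had 1 unit in 1 sgKcna1 library and 0 elsewhere. *Rpl10*, among the last proteins to join the subunit, had values of 28, 26 and 26 against 17, 14 and 8 (−1.04 ± 0.259, adjusted p = 0.069, limma), and its testis paralogue *Rpl10l* was listed at 0. *Rpl39l*, the testis paralogue of *Rpl39*, was listed at 0 as well. With same-named pseudogenes added, *Rpl3* had a fold change of −0.34 (adjusted p = 0.143) and *Rpl10* one of 0.14 (adjusted p = 0.522, limma). The muscle and testis paralogues thus contributed next to nothing to the sums.

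*Rpl7* had a mean of 625 ± 111 in sgLacZ and 716 ± 60 in sgKcna1, and *Rpl7l1* 42.3 ± 9.29 and 39 ± 3. *Rpl36a* had 611 ± 123 and 653 ± 49.9, and *Rpl36al* 13.7 ± 1.53 and 10.3 ± 3.51. *Rps4x* had 64.3 ± 14.4 and 42.3 ± 6.66, and *Rps4l* 12.7 ± 0.577 and 9.67 ± 2.08. *Rps27* had 186 ± 26.9 and 139 ± 19.3, and *Rps27l*, known as a p53 target, 36 ± 14 and 21.7 ± 2.31 (SD, n = 3). The groups overlapped in all 8 of these genes, whose adjusted p-values ranged from 0.141 for *Rps4x* to 0.718 for *Rpl7l1*.

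The direction of a gene's difference went with its level. Median log2 fold changes were −0.59 over the 29 genes with a mean under 100, −0.19 over the 35 between 100 and 500, and 0.11 over the 17 of at least 500. Over all genes of the table, the medians were −0.09 for means of 10 to 100, 0.07 for 100 to 500 and 0.17 for at least 500. Across the 79 ribosomal protein genes with a mean of at least 10, Spearman's rho between level and log2 fold change was 0.60, and across the 8050 genes of that level it was 0.17. These are descriptions across genes measured in the same 6 libraries, and genes are not independent replicates.

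The 34 genes that were lower at an unadjusted p under 0.05 had a median level of 113 and summed to 7023, 6763 and 6051 in sgLacZ and to 4559, 4735 and 4357 in sgKcna1. The 11 that were higher had a median level of 432 and summed to 5779, 6069 and 7532 and to 8315, 8566 and 9313. The remaining 36 summed to between 10851 and 11995 in every library. The genes in the first and second sum were chosen by this same difference, so their sums only describe how differences of opposite sign add up in the total.

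Ribosomal protein genes have many processed pseudogenes, and reads from nearly identical copies can be assigned to either or dropped. The last 300 bases of 1 coding transcript per gene (the one GENCODE vM1 for NCBIM37 numbers first, or else the longest) were cut into windows of 75 bases, and each window was searched for exact copies in the genome on both strands. Of the 82 genes matched, 55 had at least 1 window that occurs more than once, 22 had every window only once, and 7 had every window repeated, *Rpl10*, *Rpl23a*, *Rpl27*, *Rpl30*, *Rps6*, *Rps12* and *Rps27a*. *Rpl24* and *Rpl29*, both listed at 0 although cells in general use them, had 74.8% and 66.8% of windows repeated. Whether their messages were absent cannot be read from a listed 0.

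All 4 genes that fell were among the 34 with at least 50% of windows repeated, a boundary chosen after the values were seen. Repeated windows made up 65% of *Rpl35a*, 54.4% of *Rpl17*, 94.7% of *Rps23* and 54.9% of *Rps18*, so the values of these genes are uncertain. The 34 genes had a median log2 fold change of −0.43, with 17 lower and 4 higher at an unadjusted p under 0.05. The shares at that p were 13.6% and 9.59% of all genes. Among genes with a mean of at least 10, as all genes of these classes have, they were 23.6% and 16.1%. The 22 genes with some but under 50% of windows repeated, or with windows absent from the unspliced genome, and with a mean of at least 10, had a median of −0.20, with 10 lower and 4 higher. The 21 tested genes with every window once had a median of −0.15 (range −1.11 to 0.74), with 6 lower, 3 higher and 0 past the adjusted threshold. *Rpl15* at −1.11 and *Rps20* at 0.74 stand at the ends of that last class, and neither passed the threshold. The part of repeated windows in the differences was not tested. The level relation had a Spearman's rho of 0.62 in the first of these classes, 0.76 in the second and 0.14 in the last, as a description across genes. The transcript end used in these neurons may differ from the annotated one.

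**Figure D4:**
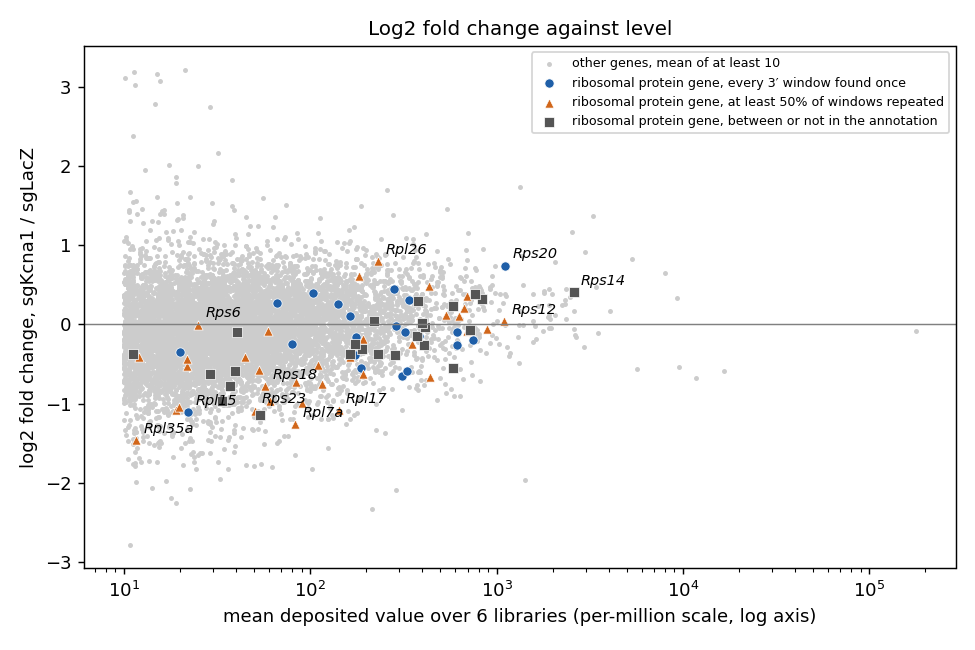
Log2 fold change (sgKcna1 minus sgLacZ, y axis) against the mean value over the 6 libraries (x axis, log scale) for genes with a mean of at least 10, with ribosomal protein genes in colour by whether their 3′ windows occur once, are at least 50% repeated, or neither. Ribosomal protein genes with a mean under 100 have a median of −0.59 and those of at least 500 a median of 0.11.

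Symbols of ribosomal protein pseudogenes carried values of their own. Of 278 such symbols, 135 were above 0, with a median log2 fold change of 0 and 0 past the adjusted threshold. At an unadjusted p under 0.05, 5 were lower and 10 higher, against 13.6% and 9.59% of all genes. The summed value of the pseudogene symbols was 1400, 1224 and 1273 in sgLacZ and 1551, 1434 and 2110 in sgKcna1, without overlap. *Rpl36-ps2* had values of 171, 163 and 171 against 241, 236 and 330 (0.66, adjusted p = 0.0556, limma). *Rpl28-ps1* had values of 20, 22 and 26 against 39, 35 and 57 (0.89, adjusted p = 0.0571, limma). Of the other pseudogenes with the smallest p, *Rpl34-ps1* had values of 2, 1 and 1 against 0, 0 and 0, and *Rps4x-ps* of 0, 0 and 0 against 2, 1 and 1, so that 1 of these 4 was lower in sgKcna1. Adding each pseudogene to the gene it is named after left *Rpl17* and *Rps23* called lower, moved the median to −0.20 and changed the sign of 5 genes, among them *Rpl10*, at 0.14.

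Of 3 genes outside the symbol rule, 2 of subunit proteins and 1 of a ribosome-bound scaffold, 1 was lower and 0 higher at an unadjusted p under 0.05, 0 passed the adjusted threshold, and the median was −0.30. *Rps3a1*, which encodes a small-subunit protein, had values of 99, 86 and 66 in sgLacZ and of 53, 44 and 37 in sgKcna1 (−0.89 ± 0.191, adjusted p = 0.0556, limma). *Fau*, which encodes the small-subunit protein eS30 as a fusion with a ubiquitin-like domain, had a fold change of 0.16 and the scaffold *Rack1* one of −0.30.

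The counts of the gene lists that follow are to be read against 13.6% of all genes lower and 9.59% higher at an unadjusted p under 0.05. For genes with a mean of at least 10, these shares were 23.6% and 16.1%. Among 16 translation factors and other genes known for TOP messages, 7 were lower and 3 higher at that p, 0 passed the adjusted threshold, and the median was −0.20. Their sum nevertheless lay higher in sgKcna1 without overlap, at 4941 to 5061 in sgLacZ and 5257 to 5713 in sgKcna1. *Eef2*, 1 of the 3 higher genes, had a mean of 1619 in sgLacZ and 2197 in sgKcna1. *Pabpc1*, the cytoplasmic poly(A)-binding protein, had values of 823, 737 and 529 in sgLacZ and of 378, 355 and 388 in sgKcna1 (−0.87 ± 0.164, adjusted p = 0.0531, limma). *Eif3e* had a fold change of −0.60 and *Tpt1* of −1.01, whereas *Eif3h*, another subunit of the same initiation factor as *Eif3e*, had one of 0.61. Of 7 snoRNA host genes with TOP-like starts, *Snhg6* fell, with values of 20, 16 and 15 against 6, 6 and 4 (−1.51 ± 0.217, adjusted p = 0.0486, limma), while the list had 3 lower and 0 higher at an unadjusted p under 0.05 and a median of −0.19. *Snhg8* had a fold change of −1.74 (adjusted p = 0.0527) and *Gas5*, named after its values were seen, one of 0.13.

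Of 30 biogenesis factors, 7 were lower and 5 higher at an unadjusted p under 0.05, 0 passed the adjusted threshold, and the median was 0.12. *Gar1* and *Dkc1*, partners in the H/ACA complex that pseudouridylates ribosomal RNA, had fold changes of −1.37 and 0.93. *Pes1* had one of 0.66 and the nucleolar methyltransferase *Fbl* one of −0.85. Of 14 genes of RNA polymerase I and its factors, 3 were lower and 3 higher, with 0 past the adjusted threshold and a median of −0.10, among them *Znrd1* at −1.02, *Taf1c* at 0.62, *Ubtf* at −0.56 and *Rrn3* at 0.75.

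Of 15 genes of the mTOR pathway, 3 were lower and 2 higher at an unadjusted p under 0.05, with 0 past the adjusted threshold and a median of 0.05. *Akt1*, a kinase upstream of mTOR, had values of 95, 105 and 81 in sgLacZ and of 66, 65 and 55 in sgKcna1 (−0.58 ± 0.133, adjusted p = 0.056, limma). The translation repressor *Eif4ebp2* had a fold change of −0.52, the S6 kinase gene *Rps6kb2* one of 1.19, and *Rheb*, the GTPase that activates mTOR, one of −0.67 with overlapping groups. For the separate ribosome of mitochondria, 11 of 76 genes were lower and 8 higher, 0 passed the adjusted threshold and the median was 0.03, with *Mrps12* at 0.67, *Mrps11* with values of 12, 15 and 10 against 7, 5 and 5, *Mrpl50* at −0.58 and *Mrps31* at −0.76. The cytosolic ribosomal protein genes had a median of −0.25, and no test compared it with those of these 7 lists.

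Markers of other cell types differed between the groups in the same libraries. Of 10 astrocyte markers, 3 fell (*Aldoc*, *Aqp4* and *Sox9*), and 6 were lower and 0 higher at an unadjusted p under 0.05. *Gfap* (−0.02), *Aldh1l1* (−0.01) and *S100b* (0.32) had overlapping groups. The summed level of the 10 was 961 to 1069 in sgLacZ and 702 to 718 in sgKcna1. Of 8 oligodendrocyte lineage markers, 7 were above 0 (*Mog* was at 0) and *Olig2* fell, with 5 lower and 1 higher at an unadjusted p under 0.05 and sums of 66 to 98 and of 40 to 44. The higher one was *Mbp*, with values of 3, 3 and 2 against 7, 4 and 7. Without the intensity trend 1 astrocyte marker and 0 oligodendrocyte lineage markers were called by limma, and with quantile normalization 0 of the latter. All 8 markers of dividing cells had fold changes under 0, 7 of them at an unadjusted p under 0.05 and 0 past the adjusted threshold, with sums of 121 to 126 and of 71 to 75. *Mcm2* (−1.29) and *Cdk1* (−1.37) had the smallest p. Of 8 microglia markers, 6 were above 0 (*P2ry12* and *Tmem119* were at 0) and *C1qa* rose, with values of 9, 6 and 6 against 23, 22 and 24. The microglia markers summed to 22 to 25 and to 53 to 72. At an unadjusted p under 0.05, 0 of them were lower and 4 higher, and *C1qc* had a fold change of −0.195 with overlapping groups.

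Neuronal markers were above 0 in at least 1 library, apart from *Pvalb*, which was at 0. General neuron markers summed to between 5985 and 6825 in sgLacZ and between 6975 and 8338 in sgKcna1, excitatory markers to 1260 to 1407 and 1197 to 1265, and inhibitory markers to 255 to 286 and 245 to 296, with 0 of the 21 tested past the adjusted threshold. Single excitatory markers went both ways without overlap, *Neurod6* at −0.40 and *Camk2a* and *Slc17a7* at 0.62 and 0.61, and of the inhibitory ones *Gad1* (−0.60) and *Slc32a1* (−0.51) lay lower without overlap. Among the general markers 4 of 7 had fold changes under 0, and the median was −0.02. *Tubb3* had values of 1862, 1752 and 2605 against 3855, 3221 and 4591, whereas *Snap25* (−0.57) and *Map2* (−0.23) lay lower without overlap. Without *Tubb3*, a choice made after its values were seen, the sum was 4204 ± 74.3 in sgLacZ and 3832 ± 141 in sgKcna1 (SD, n = 3), again without overlap but in the opposite order. Vascular and meningeal markers summed to 12 to 19 and 6 to 15, again with 0 past it, and *Pecam1*, with the smallest p of the list, had values of 0 or 1. Astrocytes, dividing cells and neurons all use ribosomal protein genes, and the part of these shifts in their values was not tested.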

How the data were processed

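The authors made 3′ end libraries (QuantSeq FWD, stranded reads of 75 bases) from 6 samples. Their methods name Bowtie2 and NCBI37/mm9, whereas the submitters' processing notes list STAR 2.7, featureCounts, DESeq2 and mm10. Counting settings, annotation and scaling are not given in the sources used here. The deposited score is a whole number per gene symbol without a header. Totals of 999047 to 999717 and a replicate variance of 0.705 (sgLacZ) and 0.504 (sgKcna1) times the mean for genes of mean 4 to 8 led to its treatment as a rounded per-million value. Depth is therefore unknown, and no count model, interval or detection floor was used.

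The test was limma 3.58.1 (R 4.3.3; lmFit, eBayes with trend) on log2(value + 1), two-sided, over 19504 genes above 0 in at least 1 library, fitting group alone, with p-values adjusted by Benjamini-Hochberg at 0.05. It was tested on simulated data. The genes and lists were chosen with earlier results of these data known. Named were genes past the threshold, the 5 highest and 5 lowest fold changes with a mean of at least 10, the 5 highest levels, the stalk, 8 paralogue pairs, and of each other list the genes past the threshold or otherwise up to 4 with the smallest p. Sequences were read with Python 3.11.15 from RefSeq promoters of GRCm38.p6 and from NCBIM37, and no coordinate was moved between builds. Alternatives were other pseudocounts, filters, scalings, variance models, the replicate block, pseudogenes summed with their gene, and each library left out. Of the genes first listed for comparison, 2 are not reported here and were left out of the counts of their lists.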

Additional observations from a re-analysis of the deposited data

How the results depend on the processing

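The number of ribosomal protein genes past the threshold depends on the processing, while their median log2 fold change was under 0 in every alternative run (−0.31 to −0.14). Called genes are given as ribosomal protein genes, then all genes, with directions in brackets where a scaling or filter changed them. A pseudocount of 0.1 gave 6 and 627, one of 5 gave 8 and 475, a mean of at least 1 gave 23 (20 lower, 3 higher) and 1543, and at least 10 in every library gave 31 (25 lower, 6 higher) and 1946. Median-of-ratios factors gave 26 (20 lower, 6 higher) and 1719 (757 lower, 962 higher), with a median of −0.17 and a log2 ratio of the summed levels of 0.10, and upper-quartile factors 25 (19 lower, 6 higher) and 2058 (832 lower, 1226 higher), with −0.14 and 0.13, where the main values were −0.25 and 0.01. These factors raised log2 fold changes by a median over all genes of 0.07 and 0.10 and changed the sign of 7 and 10 ribosomal protein genes. A common total without Gm42418 gave 25 (22 lower, 3 higher) and 1809, robust variances gave 39 and 2884, no trend gave 1 and 201 (84 lower, 117 higher), and summed pseudogenes gave 2 and 224. Quantile normalization called 4, 3 of them the same, with 0.754% of all genes lower and 0.538% higher, where the main split was 158 lower and 68 higher. With the replicate block, 0 ribosomal protein genes and 0 genes in all were called by limma (31 lower and 10 higher at an unadjusted p under 0.05, against 12.9% and 9.31% of all genes), and *Kcna1* had an adjusted p of 0.111 at 1.83. Residuals of same-numbered libraries correlated at 0.0129, 0.0301 and 0.0474 over all genes. The values were 0.0143, 0.114 and 0.154 over genes with a mean of at least 10, and 0.256, 0.0273 and −0.0067 over ribosomal protein genes. Over all genes, each sgKcna1 library correlated best with the sgLacZ library of its own number. In the same set, sgLacZ replicate 1 correlated best with sgKcna1 replicate 2 (0.0263). The labels do not say whether the numbers pair the cultures, and correlations this weak cannot decide it. Leaving out 1 library gave 0 to 33 ribosomal protein genes, 0 to 2711 genes, medians of −0.31 to −0.21 and fold changes of 1.73 to 1.99 for *Kcna1*, whose adjusted p was 0.112 to 0.144 except without sgLacZ replicate 3. The count was 33 without sgLacZ replicate 3 and 0 without each of the others. Of the values of single named genes over the alternatives, 444 kept direction and side of the threshold, 77 came to pass it, 30 no longer passed, and 17 changed sign with the adjusted p above the threshold before and after, among them *Rpl10* (0.14, adjusted p 0.522, pseudogenes summed), *Rpl23a* (0.03, adjusted p 0.913, median-of-ratios factors) and *Rps12* (−0.08, adjusted p 0.518, quantile normalization). The causes were not tested. The unknown depth and the rounding limit genes with values under about 10, such as *Rpl35a* in sgKcna1.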
